A study of Mus musculus with 13 samples.

Results

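The 8 genes described here take up, store or sense cellular iron. *Tfrc*, *Slc11a2*, *Slc39a14* and *Steap3* act in uptake, *Fth1* and *Ftl1* in storage, and *Aco1* and *Ireb2* in regulation. They were named as a list of genes with these roles, and all 8 were found among the 13222 genes listed and passed the filter on low values. Their transcripts were measured in 4T1-Thy1.1 cells, a mouse mammary carcinoma line that carries the Thy1.1 surface marker, to ask how the cytokine IL-17A alters the response to doxorubicin (DOX), a chemotherapy drug that damages DNA. All 13 libraries came from cultured cells harvested after 48 hours, and the labels and the methods name different media with serum, DMEM/F12 and RPMI. Control cells received neither agent (n = 3). The DOX group received 200 ng/mL DOX (n = 4), the IL-17A group 25 ng/mL recombinant IL-17A (n = 3), and the DOX+IL-17A group both agents at these doses (n = 3). The 3' ends of mRNAs were sequenced, so that a value does not grow with transcript length, and values are given as deposited, normalized by TMM, a scaling for library size and RNA composition. Between 4445592 reads (DOX+IL-17A replicate 2) and 16930600 reads (control replicate 3) fell on listed genes. The methods speak of biological replicates in general but do not say that these libraries came from separate cultures, so p-values measure the spread between these libraries, which may be technical.

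Most cells take up iron bound to transferrin through the transferrin receptor, release it in endosomes, reduce it and move it to the cytosol, where ferritin stores the surplus. A pair of iron regulatory proteins, IRP1 and IRP2, couples these steps. When iron is scarce, they bind short RNA hairpins called iron responsive elements, which protects the transferrin receptor mRNA through its 3' UTR and blocks translation of the ferritin mRNAs through their 5' UTRs. Proliferating tumor cells are known for high demand for iron, which ribonucleotide reductase needs to make DNA precursors, and DOX itself binds iron.

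The elements found in *Tfrc* and the ferritin genes are shown because they are the sequences through which these proteins are known to act. Their part in the values below was not tested. GENCODE vM21 transcripts were searched on the transcript strand for C, any 5 bases, then the loop CAGTGN, with the 5 bases on either side of the loop able to pair (G with T allowed). A match was present in the 5' UTR of 31 of 20916 protein-coding genes (0.148%) and in the 3' UTR of 129 of 21707 (0.594%), regions that differ in length. *Tfrc* had 4 matches in the 3' UTR of its full-length transcript, and no other gene had 3 or more. *Fth1* and *Ftl1* each had 1 match in the 5' UTR. The other 5 members had none, including *Slc11a2*, for which an element is known in the 3' UTR of some of its mRNA forms. A match describes the sequence only, and no match says only that this pattern is not in these windows. The matches follow, 5' to 3' in mm10, with the loop in capitals.
*Fth1* 5' UTR, chr19:9982732-9982760, plus strand: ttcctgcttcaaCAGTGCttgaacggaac
*Ftl1* 5' UTR, chr7:45459779-45459807, minus strand: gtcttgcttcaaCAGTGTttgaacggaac
*Tfrc* 3' UTR, chr16:32631219-32631247, plus strand: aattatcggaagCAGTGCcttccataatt
*Tfrc* 3' UTR, chr16:32631598-32631626, plus strand: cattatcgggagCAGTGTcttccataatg
*Tfrc* 3' UTR, chr16:32631663-32631691, plus strand: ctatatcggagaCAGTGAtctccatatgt
*Tfrc* 3' UTR, chr16:32631710-32631738, plus strand: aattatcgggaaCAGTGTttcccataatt

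The labelled cell type was checked first. All 6 epithelial markers were listed and none was at 0 in any library, with *Krt7* the most abundant. Their summed value was 1749 to 2238 in control, 1487 to 1858 with IL-17A, 949 to 1049.9 with DOX and 826 to 1037 with DOX+IL-17A, so that it was lower in every library that received DOX. The values are scaled for library size and do not measure the number of cells, and the reason for the lower sum was not tested. *Thy1* was present in every library, from 63.6 to 179.

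Some libraries stood apart. DOX replicate 1 was highest for marker genes of muscle, red blood cells and immune cells. The 9 skeletal muscle markers summed to 248 there and to 4.47 to 27.9 in the other DOX libraries, and *Myh4*, the most abundant, stood at 80.9. Of 10 red blood cell markers, 4 were listed, and they summed to 67 in DOX replicate 1 and to 1.61 to 5.69 in the other DOX libraries, led by *Hba-a2*. Both sums were also above their group in control replicate 1, at 37 for muscle and 14.4 for red blood cells, and this library lay apart from all others on the second principal component (74.7, against 23.4 for the next). Immune markers (3 of 6 listed, led by *Csf1r*) summed to 50.4, 41.5, 27.1 and 28.3 in DOX replicates 1 to 4, above all other libraries (10.5 to 20.7). The liver marker listed, *Alb* (1 of 6), was 0 in DOX replicate 1 and reached at most 2.25, in DOX+IL-17A replicate 2. The part of these transcripts in the results was not tested beyond leaving the libraries out.

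Genes were tested with limma on log2(value + 1) over 12319 genes in a fit of all 13 libraries, and called when the Benjamini-Hochberg adjusted p was under 0.05 and values differed over 2-fold. Log2 fold changes are on this scale, which understates the change of low genes, and are followed by their standard error (SE). In DOX against control, 2 of the 8 members were called, both higher, where 9.15% of all tested genes were called higher and 15.3% in either direction. In DOX+IL-17A against control, 2 of 8 were called higher, beside 6.95% of all genes called higher and 12.9% in either direction. In DOX+IL-17A against IL-17A, 2 of 8 were again called higher, beside 4.92% and 9.84%. Of the called genes, 59.7%, 53.9% and 50% were higher in these comparisons, and 75.6%, 70.4% and 72.7% when values were scaled by library size alone. The members called were *Tfrc* and *Slc11a2* each time. The 2 calls are 25% of the members, above these shares. With only 8 genes, chosen with earlier results of these data known, the counts say little about the group. Medians of the members' log2 fold changes were 0.38, 0.88 and 0.60 in these comparisons, beside 0.09, 0.04 and 0.02 over all genes. These medians were not tested, and the results below are those of single genes. The first 2 comparisons share their control libraries, and all comparisons with DOX+IL-17A share that group.

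No member was called in the comparisons that isolate IL-17A. In DOX+IL-17A against DOX, limma, voom with limma, DESeq2 and edgeR each called 0 of 8. Limma called 0.438% of all genes there, and the number called ranged from 35 genes (edgeR) to 93 (DESeq2). Unadjusted p was under 0.05 for 3 members by each tool (*Tfrc*, *Slc11a2* and *Fth1*), and by limma for 782 of 12319 genes. In IL-17A against control, all of these tools called 0 of 8, where limma called 0.00812% of all genes (1 gene) and DESeq2 15 genes. Here 1 member, *Slc11a2*, had an unadjusted p under 0.05 by each tool, beside 380 of 12319 genes by limma. For the interaction, which asks whether IL-17A acted differently once DOX was present, all of them called 0 of 8 at the adjusted p alone. Over all genes, limma called 0% and DESeq2 18 genes, all lower. By each tool, 0 members had an unadjusted p under 0.05, beside 556 of 12319 genes by limma.

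**Figure D1:**
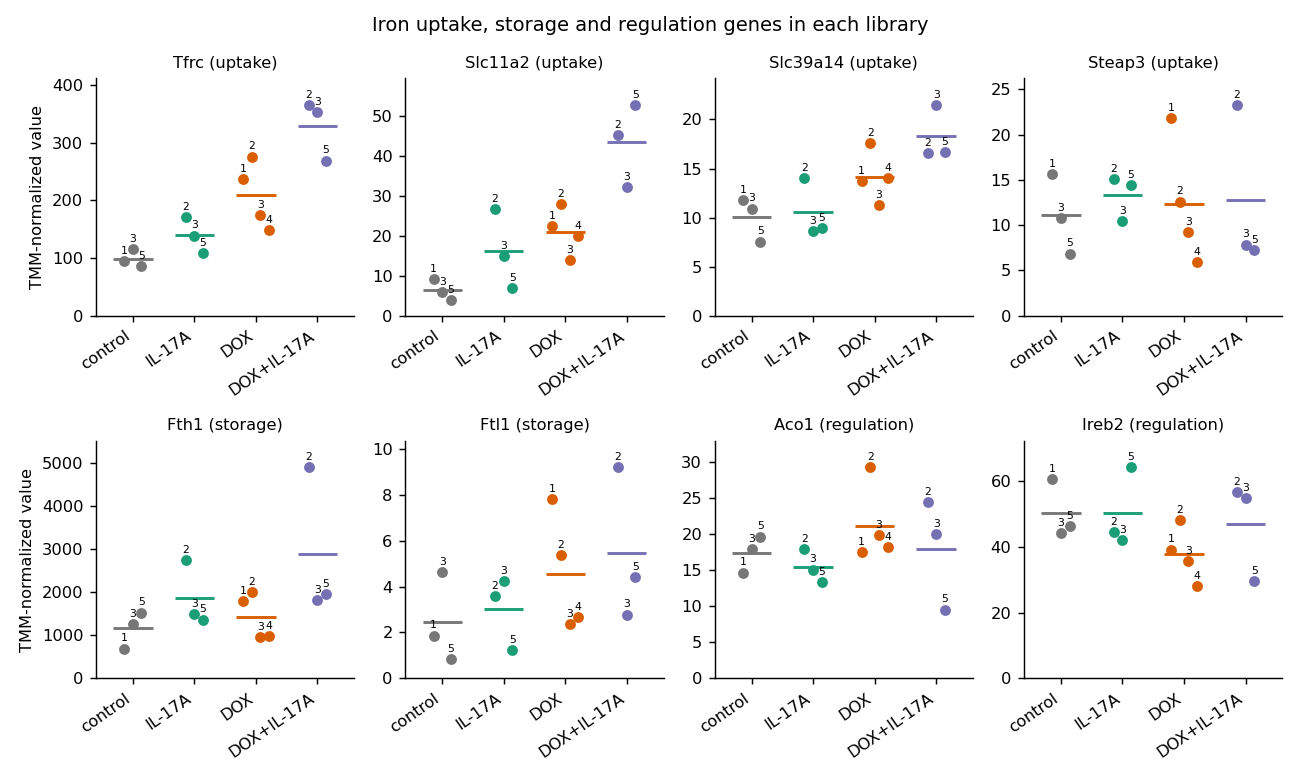
TMM-normalized value (y axis, from 0, a scale of its own for each gene) of the 8 iron genes in each library, by condition (x axis). Points are libraries with their replicate numbers and bars are group means. Group means of *Tfrc* and *Slc11a2* were lowest in control, higher with IL-17A, then DOX, and highest with DOX+IL-17A. For both genes the IL-17A group overlapped control and DOX, and no difference by IL-17A alone was called. All groups of *Steap3*, *Aco1* and *Ireb2* overlapped.

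*Tfrc* (chr16:32608920-32632794, plus strand, mm10) encodes the transferrin receptor, and was high in these cells, with a mean above that of 92.6% of listed genes. Its value was 94.4, 115 and 86.4 in control replicates 1, 3 and 5, and 171, 139 and 108 in IL-17A replicates 2, 3 and 5. It was 237, 276, 175 and 148 in DOX replicates 1 to 4, and 366, 353 and 269 in DOX+IL-17A replicates 2, 3 and 5. Every library with DOX was thus above every control library, and the DOX+IL-17A group was also above the whole IL-17A group. The lowest DOX+IL-17A library lay just below the highest DOX library, and the IL-17A group overlapped both control and DOX.

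The group means of *Tfrc* were 98.6 ± 14.7 (SD, n = 3) in control, 139 ± 31.1 (n = 3) with IL-17A, 209 ± 58.3 (n = 4) with DOX and 329 ± 52.9 (n = 3) with both. In this order, each group overlapped its neighbour. DOX raised *Tfrc* by 1.05 (SE 0.24) on the log2 scale (limma adjusted p = 0.00615), and DOX+IL-17A by 1.73 (SE 0.25) against control (limma adjusted p = 0.000508). With IL-17A in both groups, DOX raised it by 1.25 (SE 0.25; limma adjusted p = 0.00587). The call in DOX against control sat near the fold threshold. It was lost without control replicate 5 (0.96; limma adjusted p = 0.0304), without DOX replicate 1 (0.97; 0.0202) and without DOX replicate 2 (0.90; 0.0216), each time because the fold fell under 2.

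For IL-17A itself the *Tfrc* values were 0.48 (SE 0.25; limma adjusted p = 0.959) against control and 0.68 (SE 0.24; limma adjusted p = 0.456) on top of DOX. The difference between both effects was 0.20 (SE 0.34; limma adjusted p = 0.936), so no difference between them was resolved. The unadjusted p on top of DOX was 0.0108, and across 24 alternatives the value stayed between 0.53 and 0.83 without being called.

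*Slc11a2* (chr15:100387898-100425072, minus strand) encodes the divalent metal transporter DMT1, which carries iron out of endosomes and, in the gut, into cells. Its protein-coding transcripts end at 2 different places in the annotation, and the deposited value does not separate them. Its value was 9.14, 5.78 and 3.89 in control replicates 1, 3 and 5, and 26.7, 14.8 and 6.81 in IL-17A replicates 2, 3 and 5. It was 22.4, 27.9, 13.8 and 19.9 in DOX replicates 1 to 4, and 45.2, 32.2 and 52.7 in DOX+IL-17A replicates 2, 3 and 5. The DOX+IL-17A libraries were above all 10 others, and the DOX libraries above all control libraries. IL-17A replicates spread from within the control range to near the top of the DOX range. Between 33 and 844 reads lay behind each value.

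The group means of *Slc11a2* were 6.27 ± 2.66 (SD, n = 3) in control, 16.1 ± 10 (n = 3) with IL-17A, 21 ± 5.83 (n = 4) with DOX and 43.4 ± 10.4 (n = 3) with both, the same order as for *Tfrc*. DOX raised it by 1.62 (SE 0.40; limma adjusted p = 0.00952), and DOX+IL-17A by 2.64 (SE 0.42; limma adjusted p = 0.000944) against control, a fold change of 6.25. Both were called under all 24 alternatives. DOX+IL-17A exceeded IL-17A by 1.53 (SE 0.42; limma adjusted p = 0.0269). This last call was lost without DOX+IL-17A replicate 2 (1.49; limma adjusted p = 0.0786), DOX+IL-17A replicate 5 (1.38; 0.0814), IL-17A replicate 3 (1.56; 0.0726) or IL-17A replicate 5 (1.06; 0.112).

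The values of *Slc11a2* for IL-17A were 1.11 (SE 0.42) without DOX and 1.02 (SE 0.40) on top of it, a little over 2-fold each. The former was 0.67 without IL-17A replicate 2 and 1.59 without IL-17A replicate 5. Neither passed adjustment over all genes (limma adjusted p = 0.959 and 0.611), although the DOX+IL-17A and DOX libraries did not overlap. The difference between the effects was -0.09 (SE 0.58; limma adjusted p = 0.986).

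*Slc39a14* (chr14:70303469-70351425, minus strand) encodes ZIP14, a transporter of iron that is not bound to transferrin, and of zinc. It was 11.8, 10.9 and 7.54 in control, 14, 8.65 and 8.94 with IL-17A, 13.7, 17.6, 11.3 and 14 with DOX, and 16.6, 21.5 and 16.7 with DOX+IL-17A, in the order of replicate numbers. The DOX+IL-17A libraries were above all control and IL-17A libraries and overlapped the DOX group. The log2 fold change was 0.81 (SE 0.30; limma adjusted p = 0.075) against control and 0.76 (SE 0.30; limma adjusted p = 0.107) against IL-17A, and neither was called under any of 24 alternatives. For DOX against control it was 0.46 (SE 0.28; limma adjusted p = 0.254).

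*Steap3* (chr1:120190757-120272705, minus strand) encodes an endosomal reductase that turns ferric into ferrous iron. Its values were 15.6, 10.8 and 6.84 in control, 15.1, 10.4 and 14.4 with IL-17A, 21.8, 12.6, 9.23 and 5.9 with DOX, and 23.3, 7.84 and 7.24 with DOX+IL-17A. All groups overlapped, and the spread within the DOX and DOX+IL-17A groups came with single high libraries, DOX replicate 1 and DOX+IL-17A replicate 2. The log2 fold changes lay between -0.22 and 0.29 in the 5 comparisons, with SEs of 0.45 to 0.48.

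**Figure D2:**
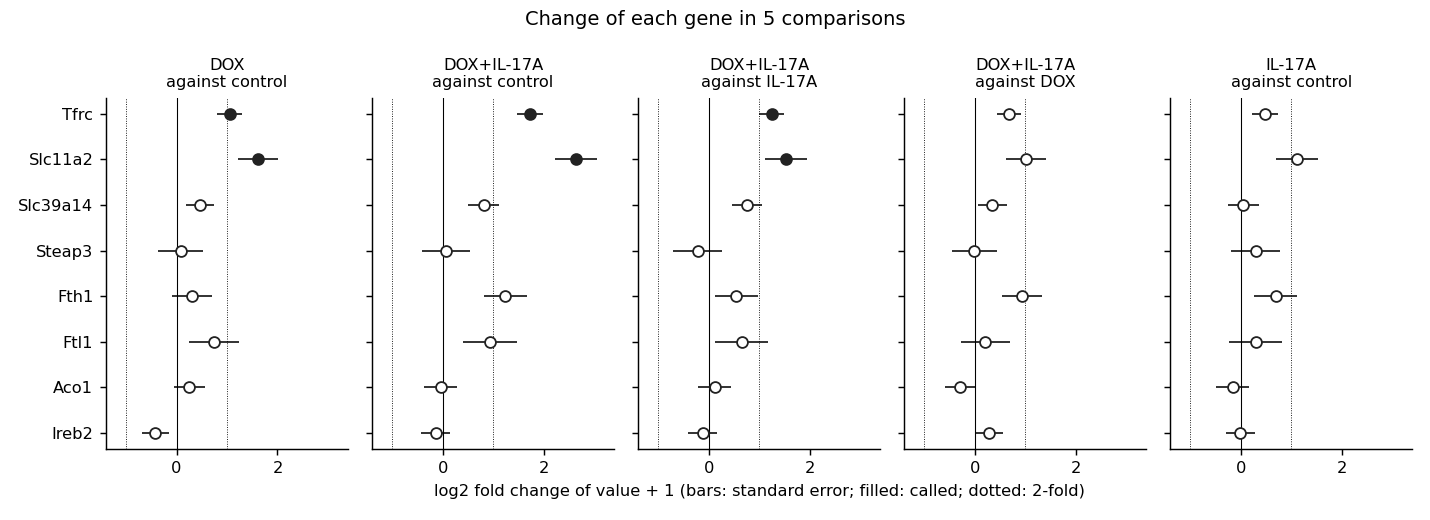
Log2 fold change of value + 1 (x axis) of the 8 genes (y axis) in 5 comparisons, with bars of 1 standard error. Filled points were called, and dotted lines mark a 2-fold change. *Tfrc* and *Slc11a2* were called in each comparison that differs by DOX, and no gene was called in those that differ by IL-17A alone.

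Ferritin is built of heavy and light chains. *Fth1* (chr19:9980598-9985098, plus strand) encodes the heavy chain, which oxidizes iron as it enters, and was among the most abundant transcripts (51st of 13222 by mean). It was 689, 1269 and 1530 in control replicates 1, 3 and 5 and 2753, 1487 and 1365 in IL-17A replicates 2, 3 and 5. It was 1793, 2004, 959.9 and 985 in DOX replicates 1 to 4 and 4906, 1822 and 1966 in DOX+IL-17A replicates 2, 3 and 5. DOX and control overlapped, while the DOX+IL-17A libraries all exceeded the control libraries. The library numbered 2 was the highest of its group in all 3 groups that have one, as it was for *Tfrc* and *Aco1*.

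For *Fth1*, DOX against control gave 0.30 (SE 0.40; limma adjusted p = 0.615), and -0.04 without control replicate 1. DOX+IL-17A against control gave 1.24 (SE 0.43; limma adjusted p = 0.0557), a value that was called by DESeq2 (1.31; adjusted p = 0.0152), by edgeR (1.32; adjusted p = 0.0471) and with scaling by library size alone (1.42; limma adjusted p = 0.0316). Adjusted p ranged from 0.0152 to 0.237 over the alternatives, the highest without DOX+IL-17A replicate 2, where the log2 fold change was 0.78. On top of DOX, IL-17A gave 0.94 (SE 0.40; limma adjusted p = 0.7), and 0.48 without that library, which was also the shallowest.

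*Ftl1* (chr7:45457944-45459884, minus strand) encodes the light chain, which helps iron mineralize in the shell. It was 1.86, 4.63 and 0.825 in control, 3.6, 4.24 and 1.23 with IL-17A, 7.81, 5.36, 2.38 and 2.68 with DOX, and 9.2, 2.78 and 4.43 with DOX+IL-17A. These values rest on 7 to 97 reads, all groups overlapped, and no comparison was called, the largest value being 0.94 (SE 0.53; limma adjusted p = 0.229) for DOX+IL-17A against control. The level is uncertain, since other loci carry near-identical copies. Of the 75-base windows in the last 500 bases of the main *Ftl1* transcript, 290 of 426 (68.1%) also occur in transcripts of other genes, among them *Ftl1-ps1* and *Ftl1-ps2*. The share was 7.75% for *Fth1* and 0% for the other 6 members. *Ftl1-ps2* itself was listed at 2.56 to 24.9, above *Ftl1* in 12 of 13 libraries. Whether reads of *Ftl1* were lost or assigned elsewhere for this reason was not tested.

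Within libraries, *Fth1* exceeded *Tfrc* by 7.3- to 17.7-fold in control, 10.7- to 16.1-fold with IL-17A, 5.48- to 7.56-fold with DOX and 5.16- to 13.4-fold with DOX+IL-17A. The ratio is a description, and its groups overlapped except for DOX and IL-17A. The mean log2 ratio of *Tfrc* to *Fth1* was -3.49 ± 0.64 (SD) in control, -3.70 ± 0.30 with IL-17A, -2.74 ± 0.21 with DOX and -2.99 ± 0.70 with DOX+IL-17A. *Fth1* exceeded *Ftl1* by 229.7-fold in DOX replicate 1 and up to 1854-fold in control replicate 5, where only 7 *Ftl1* reads were counted, so this ratio carries the uncertainty of *Ftl1*.

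**Figure D3:**
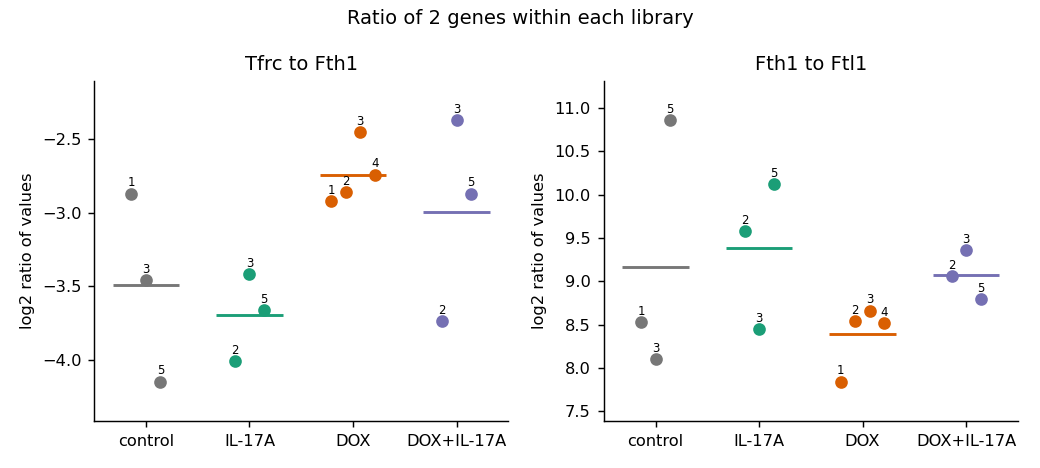
Log2 ratio (y axis) of *Tfrc* to *Fth1* and of *Fth1* to *Ftl1* within each library, by condition (x axis). Points are libraries with replicate numbers and bars are group means. The 4 DOX libraries had *Tfrc* to *Fth1* ratios between -2.92 and -2.45, above the 3 IL-17A libraries (-4.01 to -3.42), and the control and DOX+IL-17A groups spread across both.

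*Aco1* and *Ireb2* encode the sensors. *Aco1* (chr4:40143081-40198338, plus strand) gives IRP1, which is an aconitase while it holds an iron-sulfur cluster and binds RNA without it. Its values were 14.7, 18 and 19.7 in control, 18, 15.1 and 13.4 with IL-17A, 17.5, 29.3, 19.9 and 18.2 with DOX, and 24.5, 20 and 9.55 with DOX+IL-17A. All groups overlapped, and the log2 fold changes lay between -0.29 and 0.25 with SEs of 0.31 to 0.33.

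*Ireb2* (chr9:54863789-54912530, plus strand) gives IRP2, which is degraded when iron is plentiful. Its values were 60.6, 44.1 and 46.2 in control, 44.4, 42.1 and 64.1 with IL-17A, 39.1, 48.2, 35.7 and 28 with DOX, and 56.6, 54.9 and 29.6 with DOX+IL-17A. The groups overlapped, and the lowest value against control was -0.42 with DOX (SE 0.27; limma adjusted p = 0.278). Protein levels and RNA binding, through which both sensors act, were not measured.

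The profiles of the called genes were compared with those of 8197 other tested genes with a mean value of at least 10, by the root mean square difference of log2(value + 1) centred over 13 libraries. *Fam136a* (0.24) and *Psmb3* (0.27) were nearest to *Tfrc*, against a median of 0.79 over all genes compared. *Slc25a33* (0.42) and *Tfrc* (0.52) were nearest to *Slc11a2*, where the median over all genes compared was more than 2 times as large. The reverse did not hold, since *Slc11a2* ranked only 774th for *Tfrc*, at the same difference of 0.52, and *Slc39a14* 84th (0.39). These ranks include the differences between conditions and carry no test.

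**Figure D4:**
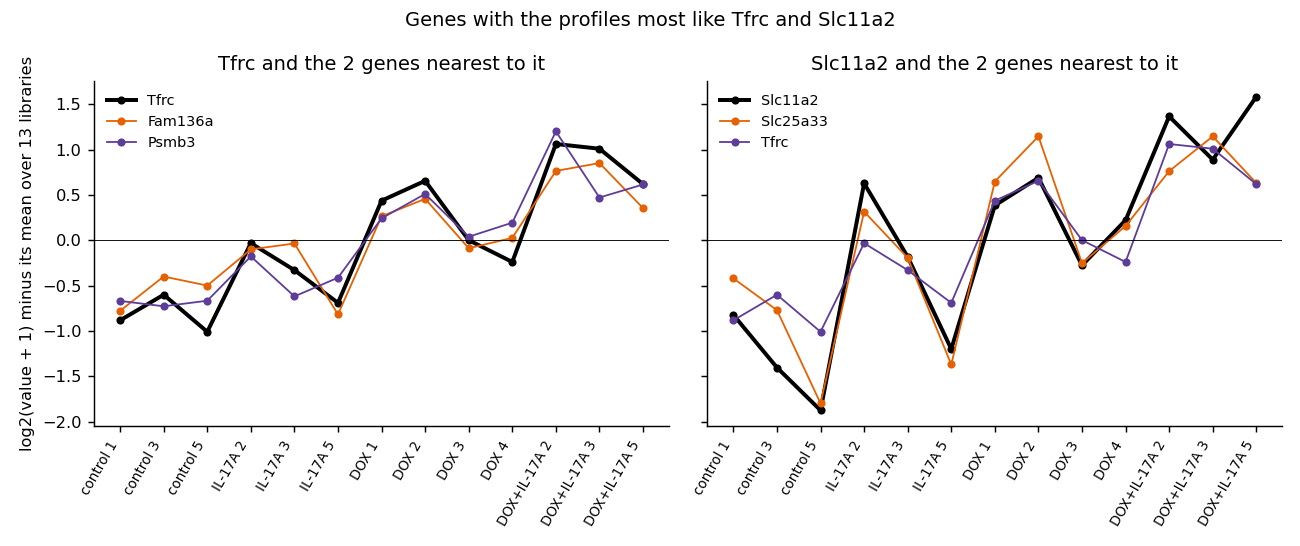
Log2(value + 1) minus its mean over 13 libraries (y axis) in each library (x axis, by condition and replicate number) for *Tfrc* and *Slc11a2* (thick lines) and the 2 genes nearest to each. *Tfrc* and *Slc11a2* both have their lowest library in control and their highest in DOX+IL-17A.

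Of 87 other symbols in 7 lists of iron genes, also chosen with earlier results of these data known, 73 were listed and 70 tested. In DOX against control, 8 were called higher and 2 lower (14.3%, beside 15.3% of all genes), with a median log2 fold change of 0.12 beside 0.09 over all genes. With DOX+IL-17A against control, 10 were called higher and 5 lower (21.4%, beside 12.9%), with a median of 0.13 beside 0.04. In DOX+IL-17A against DOX, 2 were called higher and 0 lower (2.86%, beside 0.438%), with medians of 0.01 and -0.03. For DOX+IL-17A against IL-17A, 3 were called higher and 5 lower (11.4%, beside 9.84%). With the replicate number as a block over all 13 libraries, 6 were called higher and 5 lower, but the labels do not say that these numbers pair samples. The 8 became 12 (6 higher, 6 lower) without control replicate 1, 3 without DOX+IL-17A replicate 2, 4 without IL-17A replicate 3 and 4 without IL-17A replicate 5, and 6 (5 higher, 1 lower) with scaling by library size alone. The medians of these iron genes thus lay near those of all genes, and single genes were called in both directions.

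In the list of other genes of uptake and trafficking (9 tested, 2 called higher with DOX), the reductase gene *Steap1* was 21.5, 69.5 and 50.8 in control and 89.3, 94.2, 89.1 and 122 with DOX. It differed by 1.18 (SE 0.35; limma adjusted p = 0.0257), a call lost without control replicate 1 (0.71; 0.0932) or DOX replicate 4 (1.08; 0.0721). *Slc39a8*, which encodes the related transporter ZIP8, was 0, 0.731 and 0.471 in control and 4.67, 5.69, 3.5 and 3.49 with DOX, a difference of 1.95 (SE 0.47; limma adjusted p = 0.0086). *Lcn2*, encoding lipocalin 2, which binds iron-carrying siderophores, was 12.9, 7.98 and 7.54 in control, 12.5, 19.7, 0.559 and 0.984 with DOX, 84.7, 25.3 and 24.3 with IL-17A, and 150.3, 66.2 and 47.1 with DOX+IL-17A. All libraries with IL-17A were above all without it, but IL-17A against control (1.92, SE 0.82; limma adjusted p = 0.959) was not called. DOX+IL-17A exceeded DOX by 3.86 (SE 0.77; limma adjusted p = 0.0408), and was not called in 12 of 24 alternatives. The call was lost without DOX+IL-17A replicate 2 (3.39; limma adjusted p = 0.22), 3 (3.98; 0.188) or 5 (4.22; 0.0969) and without DOX replicate 3 (3.26; 0.143) or 4 (3.38; 0.18). It was also lost without control replicate 5 (3.86; 0.0572), IL-17A replicate 3 (3.86; 0.063) or IL-17A replicate 5 (3.86; 0.0509), which alter only the fit. *Snx3*, the most abundant gene of the list, ranged from 15.7 to 260.2 within control alone.

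In the list of ferritin turnover and iron chaperones (6 tested), *Pcbp2*, an RNA-binding protein that also delivers iron to ferritin, was 298, 125 and 176 in control and 71.4, 38.4, 54.4 and 48.5 with DOX. It fell by 1.83 (SE 0.28; limma adjusted p = 0.000521) with DOX and by 1.49 (SE 0.30; limma adjusted p = 0.00389) with DOX+IL-17A, and was called under all 24 alternatives of both. *Ncoa4*, the receptor that takes ferritin to the lysosome for breakdown, was 15.2, 29.7 and 22.9 in control and 49.4, 69.7, 37.9 and 52.3 with DOX. It differed by 1.19 (SE 0.36; limma adjusted p = 0.0287), a call lost without control replicate 1 (0.95; 0.0809), control replicate 5 (1.23; 0.0642), DOX replicate 1 (1.21; 0.0533), DOX replicate 2 (1.05; 0.08) or DOX replicate 4 (1.18; 0.0622). *Pcbp1*, the most abundant gene of this list, was 174 to 226 in control and 165 to 242 with DOX.

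The list of iron export held 3 tested genes, with none called in DOX against control or DOX+IL-17A against DOX. *Slc40a1*, encoding the exporter ferroportin, was 6.94, 8.28 and 8.02 in control and 3.78, 4.49, 3.91 and 1.52 with DOX. These groups did not overlap, but the difference of -1.04 (SE 0.36; limma adjusted p = 0.0512) was not called. It was called in 5 of 24 alternatives, by voom with limma (-1.34; adjusted p = 0.0417), by DESeq2 (-1.22; 0.0401), under the filter of 10 reads on average (0.0498), and without DOX+IL-17A replicate 2 (0.0462) or 5 (0.0429). Among the 19 others were edgeR (-1.18, adjusted p = 0.083), scaling by library size alone (-0.89, adjusted p = 0.0928) and the fit without DOX replicate 4 (-0.79, adjusted p = 0.152). *Erfe*, encoding erythroferrone, was 22.2, 19.6 and 25.7 with IL-17A and 50.1, 40.9 and 49.9 with DOX+IL-17A. It differed by 1.03 (SE 0.24, limma adjusted p = 0.0119), a call lost without DOX+IL-17A replicate 2 (0.98; 0.0421), DOX+IL-17A replicate 5 (0.99; 0.0331) or IL-17A replicate 3 (0.94; 0.0556), and without the 3 libraries numbered 2 (0.98, adjusted p = 0.0975).

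Among 8 tested genes that control the regulatory proteins or *Tfrc* mRNA, or carry iron responsive elements, none was called with DOX. *Zc3h12a*, encoding Regnase-1, a ribonuclease known to degrade *Tfrc* mRNA among others, was 15.6, 12.1 and 8.37 in control, 67.6, 52.5 and 33.5 with IL-17A, 28.1, 33.8, 10.3 and 14.4 with DOX, and 60.3, 76.6 and 83.9 with DOX+IL-17A. Here the IL-17A and DOX+IL-17A libraries were above the control and DOX libraries, apart from IL-17A replicate 5, which lay just below DOX replicate 2. IL-17A against control gave 1.99 (SE 0.39; limma adjusted p = 0.254) and was not called. DOX+IL-17A exceeded control by 2.54 (SE 0.39; limma adjusted p = 0.000746) and DOX by 1.85 (SE 0.37; limma adjusted p = 0.0408). The latter was not called in 11 of 24 alternatives. It was lost without DOX+IL-17A replicate 2 (1.98; limma adjusted p = 0.0937), 3 (1.81; 0.227) or 5 (1.75; 0.185), without DOX replicate 3 (1.56; 0.149) or 4 (1.71; 0.189), and without IL-17A replicate 2 (1.85; 0.0549) or 3 (1.85; 0.0684). *Cdc14a*, a phosphatase gene with a known iron responsive element, is named after its values were seen. It was 25.5, 18.3 and 19.2 in control and 7.36, 9.83 and 4.62 with DOX+IL-17A, and fell by 1.45 (SE 0.33, limma adjusted p = 0.00775), a call lost in 1 of 24 alternatives, the fit of only the groups compared (adjusted p = 0.0623). Against IL-17A it differed by -1.05 (SE 0.33, limma adjusted p = 0.0444), a call that held in only 11 of 24 alternatives. It was lost without control replicates 3 or 5 or any 1 DOX library (-1.05 each, adjusted p = 0.0516 to 0.0607). It was also lost without DOX+IL-17A replicate 2 (-1.09, adjusted p = 0.0854) or 5 (-0.80, adjusted p = 0.138) and without IL-17A replicate 2 (-1.03, adjusted p = 0.0948) or 3 (-0.88, adjusted p = 0.173). The other losses were with scaling by library size alone (-0.85, adjusted p = 0.104), with only the groups compared (adjusted p = 0.1) and without the 3 libraries numbered 2 (-1.06, adjusted p = 0.181). *Fbxl5*, encoding the ubiquitin ligase subunit that marks IRP2 for breakdown, ranged from 30 to 81.8 over all libraries and was not called.

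Of 15 tested genes of haem metabolism, *Cpox*, an enzyme of haem synthesis, was called with DOX. It was 4.74, 51.8 and 34.8 in control and 69.4, 90.1, 125 and 98.5 with DOX, a difference of 2.10 (SE 0.54; limma adjusted p = 0.0128). Control replicate 1 was far below its group, and without it the difference was 1.12 (limma adjusted p = 0.0152). *Slc48a1*, encoding the haem transporter HRG1, was 103, 96.9 and 100.4 in control and 56.4, 65.6, 52 and 52.9 with DOX. These groups did not overlap, and the difference of -0.81 (SE 0.25; limma adjusted p = 0.0294) was under 2-fold and not called. It was 129, 91.6 and 154 with IL-17A and 55.2, 39.9 and 89.1 with DOX+IL-17A, and was called lower between these groups (-1.06, SE 0.27, limma adjusted p = 0.0175). That call was lost without DOX+IL-17A replicate 2 (-1.02, adjusted p = 0.0567), DOX+IL-17A replicate 3 (-0.79, adjusted p = 0.0845) or IL-17A replicate 5 (-0.89, adjusted p = 0.074), with scaling by library size alone (-0.84), and without the 3 libraries numbered 2 (-0.98, adjusted p = 0.138).

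Of 22 tested genes of mitochondrial iron and iron-sulfur cluster assembly, 3 were called higher with DOX. The scaffold gene *Iscu* was 4.74, 10.7 and 7.31 in control and 24.8, 56.8, 32.3 and 37.5 with DOX, a difference of 2.18 (SE 0.57; limma adjusted p = 0.0135). *Cisd1*, encoding the outer membrane protein mitoNEET, was 37.9, 47.2 and 51 in control and 99.7, 99.4, 106 and 122 with DOX, a difference of 1.22 (SE 0.20; limma adjusted p = 0.0009). *Bola3*, which helps pass clusters on, was 49.2 to 64.6 in control and 112 to 136 with DOX, a difference of 1.04 (SE 0.18; limma adjusted p = 0.00131). Its fold fell under 2 without control replicate 5 (0.93) or DOX replicate 4 (0.98).

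Of 7 tested genes of cytosolic cluster assembly, *Nubp2*, a scaffold component, was 9.64, 9.13 and 10.5 in control, 11.3, 15.1 and 11.2 with IL-17A, 43.8, 50.8, 58.7 and 56.6 with DOX, and 73, 40.9 and 49.1 with DOX+IL-17A. All libraries with DOX were above all libraries without it, and the difference was 2.31 (SE 0.24; limma adjusted p = 2.44e-05) with DOX and 2.32 (SE 0.26; limma adjusted p = 9.98e-05) with DOX+IL-17A against control. *Mms19*, which hands clusters to DNA repair and replication enzymes, was 64.4 to 71.1 in control and 24.4 to 38.7 with DOX. It fell by 1.09 (SE 0.27; limma adjusted p = 0.0109), a call lost without DOX replicate 2 (-0.97, adjusted p = 0.0352) or with scaling by library size alone (-0.92, adjusted p = 0.0198).

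Of these genes, 5 of the 10 called in DOX against control were called under all 24 alternatives (*Slc39a8*, *Pcbp2*, *Iscu*, *Cisd1* and *Nubp2*). Without the 3 libraries numbered 2, *Steap1*, *Ncoa4*, *Cpox* and *Mms19* were not called, with log2 fold changes of 1.20, 1.05, 2.12 and -0.97 and limma adjusted p of 0.0736, 0.0689, 0.055 and 0.0469. The count called under all 24 alternatives was 5 of 15 in DOX+IL-17A against control (*Pcbp2*, *Zc3h12a*, *Bola3*, *Cisd1* and *Nubp2*). There, *Slc39a8* was called in 14 of 24 alternatives and *Iscu* in 10. Without control replicate 3, the 10 became 17, and without control replicate 5, the 15 became 9. The 2 called in DOX+IL-17A against DOX became 1 without control replicate 5, IL-17A replicate 2 or IL-17A replicate 5. They became 0 without DOX replicates 3 or 4, any DOX+IL-17A library or IL-17A replicate 3.

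**Figure D5:**
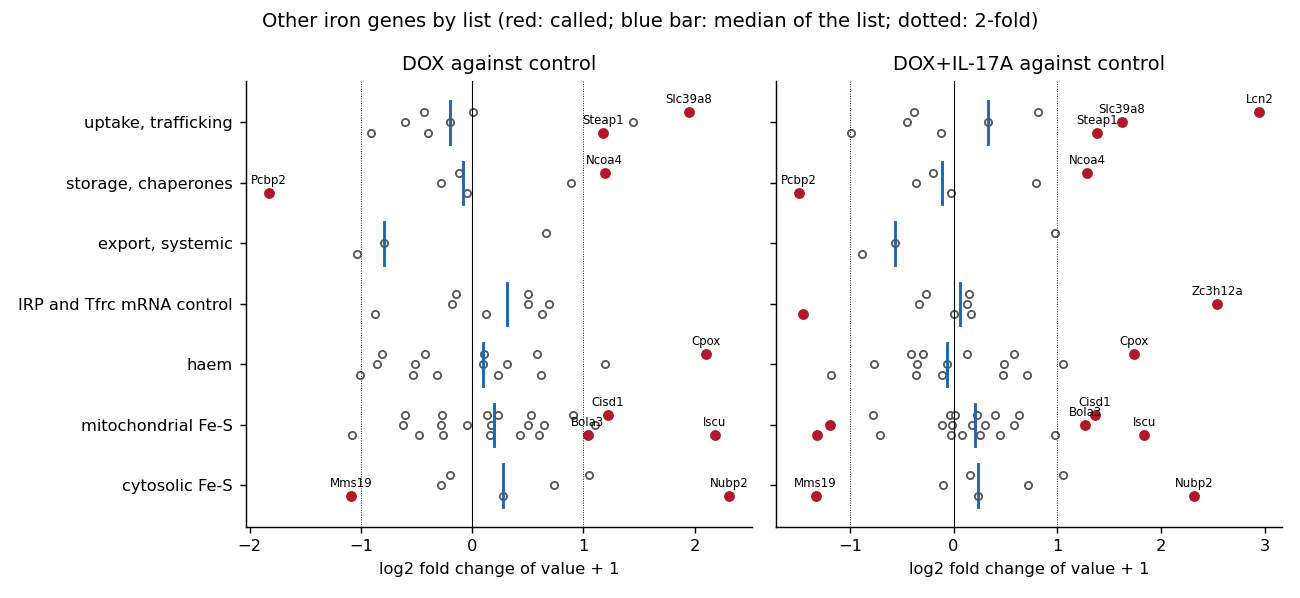
Log2 fold change of value + 1 (x axis) of the 70 other iron genes tested, in 7 lists (y axis), for DOX against control and DOX+IL-17A against control. Red points were called, with names for those called in DOX against control or DOX+IL-17A against DOX, open points were not, blue bars are list medians and dotted lines mark a 2-fold change. Called genes lay on both sides of 0, and list medians lay between -0.79 and 0.33.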

How the data were processed

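The deposited table holds a TMM-normalized signal per gene and library. The authors made 3' mRNA libraries (single 75 base reads), trimmed reads with Trimmomatic, aligned them to mm10 with STAR, counted with featureCounts and normalized by TMM. The annotation is not given in the sources used here. Of 13223 entries, 1 duplicate was dropped. All values (100%) were whole multiples of 1 read's value (tolerance 0.01), which gave back the reads. Members and gene lists were chosen with earlier results of these data known.

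Genes kept by edgeR's filterByExpr (12319) were tested with limma-trend on log2(value + 1), condition only (9 residual degrees of freedom), all libraries in 1 fit, and adjusted by Benjamini-Hochberg. The interaction was called at adjusted p alone. Named genes were the members, genes of fixed iron lists called in DOX against control or DOX+IL-17A against DOX, up to 4 abundant others per list, and the nearest profiles to each called member (2 of 3 are reported here). Alternatives were voom, DESeq2 and edgeR on the recovered reads, library size scaling, other filters, a pseudocount of 0.1, only the groups compared, a replicate block, adjusted p alone and each library left out. Added after seeing the data were leaving out control replicate 1 with DOX replicate 1, and the 3 libraries numbered 2. The labels give replicate numbers but do not say what they mean, so whether they pair samples is not known. For DOX+IL-17A and IL-17A, deviations of same-numbered libraries from their group means correlated at 0.168, 0.203 and 0.355. Some libraries with different numbers correlated more strongly, such as control replicate 1 with IL-17A replicate 5 (0.468). These values therefore do not establish a pairing. The replicate block, fitted over all 13 libraries, kept both member calls in DOX+IL-17A against IL-17A. Software was python 3.11.15 with numpy 2.4.6 and pandas 2.3.3, and DESeq2 1.42.0, edgeR 4.0.16 and limma 3.58.1 in R 4.3.3, and tests were tried on simulated data first.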

Additional observations from a re-analysis of the deposited data

Results flagged for a closer look

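In the DOX group, the gap of 1 library to the nearest other, as a share of the group's range, was above the critical value of Dixon's test for 4 samples for 2 summed values and 1 ratio. The log2 ratio of *Fth1* to *Ftl1* was low in DOX replicate 1 (7.84, against 8.52 to 8.66 in the others; share 0.831). The summed skeletal muscle markers were high in the same library (248; share 0.904), as were the red blood cell markers (67; share 0.938). *Alb*, the liver marker listed, was above 0 only in DOX replicate 4 of this group (0.268, the value of 3 reads). Its share is 1 for any value above 0 when the other libraries are at 0, so this carries no information. None of the 8 iron genes stood out in this way. With many groups looked at, some are expected to do so by chance.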

How the results depend on the processing

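The calls of *Slc11a2* in DOX against control and of both genes in DOX+IL-17A against control held in all 24 alternatives. Of 8 members, 2 were called in DOX against control, and 1 to 2 with single libraries left out, 1 without control replicate 1 and DOX replicate 1 together and 1 without the 3 libraries numbered 2. The 2 called in DOX+IL-17A against IL-17A became 1 to 2 with single libraries left out. Of the other iron genes, 10 were called in DOX against control, 8 to 17 with single libraries left out and 6 without the libraries numbered 2. The 8 other iron genes called in DOX+IL-17A against IL-17A became 3 to 12 with single libraries left out, 3 without the libraries numbered 2 and 11 with the replicate block. The 15 called in DOX+IL-17A against control became 6 with only the groups compared, 9 to 16 with single libraries left out and 7 without the libraries numbered 2. The 2 called in DOX+IL-17A against DOX became 1 with DESeq2, 0 with edgeR, 0 with a pseudocount of 0.1, 1 with a replicate block, 0 to 2 with single libraries left out and 0 without the libraries numbered 2. Fits with fewer libraries also have less power, and the cause of each shift was not tested.

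When values were scaled by library size alone, the median over all genes went from 0.09 to 0.24 (log2) in DOX against control, from 0.04 to 0.20 in DOX+IL-17A against control and from 0.02 to 0.22 in DOX+IL-17A against IL-17A. *Tfrc* moved from 1.05 to 1.22, from 1.73 to 1.90 and from 1.25 to 1.47. Between all other pairs of groups, deviations of same-numbered libraries correlated from -0.175 to 0.491. Whether same-numbered libraries share more than a number was not tested. The block changed no call of a member, and called 7 rather than 10 other iron genes in DOX against control (without *Ncoa4*, 0.82, *Bola3*, 0.88, and *Mms19*, -0.96) and 10 rather than 15 in DOX+IL-17A against control. The limits are 1 cell line, 3 to 4 libraries per group, 1 dose and 1 time, no measure of protein or iron, and few reads for *Ftl1*.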
